A study of Ovis aries with 15 samples.

Results

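The RAS-ERK cascade was described in the ruminal epithelium of Hu lambs through 8 genes: LZTR1, ARAF, BRAF, MAP2K1, MAP2K2, MAPK3, DUSP6 and SPRY2. They were taken by gene name from the expression tables, where a name with no row was passed over. A row was found for 7 of the 8 among 19304 genes, and SPRY2 had no row of that name. MAP2K1 and LZTR1 were chosen by their measured FPKM, which was higher on high grain than in the control, so their differences from control are given as a description with no test. The other members entered as parts of the same cascade. Of the 7, 6 had at least 1 FPKM in at least 5 libraries and entered the test, which covered 13084 genes. MAPK3 did not.

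The samples were 15 total RNA libraries of ruminal epithelium from male lambs aged 6 months, in 3 groups labelled HP, HG and CON with 5 libraries each. From the wording of the series title, HP was read as the pelleted high-grain diet, HG as the non-pelleted one and CON as the control diet. The composition of the diets is not given in the sources used here. All lambs were of the same breed, sex and age. Whether the libraries of a group came from separate animals is not stated in the labels, and p-values therefore measure the spread between these libraries, which may be technical.

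In the RAS-ERK pathway, growth factor receptors load RAS proteins with GTP, and RAS then recruits RAF kinases such as ARAF and BRAF. RAF kinases phosphorylate MEK1 and MEK2, the products of MAP2K1 and MAP2K2, which in turn phosphorylate the ERK kinases, of which MAPK3 encodes ERK1. LZTR1 is a substrate adaptor of the CUL3 ubiquitin ligase that directs RAS-family proteins such as RIT1 to degradation, and DUSP6 is a phosphatase that inactivates ERK and is itself induced by it. In stratified epithelia the pathway is known for driving the proliferation of basal cells. These activities run through phosphorylation, which RNA levels do not measure.

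Values were FPKM (fragments corrected for transcript length and library size), so depth per library is unknown and no counting interval can be given. The median FPKM over all genes was 1.98 in CON1 and 1.52 in CON3, against 2.51 to 3.19 in the other libraries. The median log2 fold change over all genes tested was 0.18 for HP against CON and 0.17 for HG against CON, so changes are also given relative to that median gene. The keratinocyte markers, 12 of 12 found, summed to 6216 to 10180 FPKM in HP, 7408 to 9137 in HG and 6452 to 8447 in CON, so the defining markers of the labelled tissue were present in each library. The 8 smooth muscle markers found, of 9, summed to 171 to 3090 FPKM in HP, 195.2 to 5273 in HG and 184.7 to 1628 in CON. They stood above 1000 FPKM in HP5, HG2, HG3 and CON1. The 7 fibroblast markers summed to 929.6 to 1628 FPKM in HP, 1085 to 1829 in HG and 663.6 to 1149 in CON, the 6 endothelial ones to 70.6 to 132.7, 70.2 to 108.6 and 55.2 to 82.5, and the 9 leukocyte ones to 40.7 to 100.4, 38.6 to 117.7 and 73.5 to 115.2. Of the 5 nerve and Schwann cell markers 4 were found, with sums of 0.392 to 2.94, 0.282 to 3.73 and 0.426 to 2.39 FPKM. No marker found was at 0 in every library. The part of these other cell types in the results below was not tested. In whole tissue, fewer cells of a type and less RNA per cell cannot be told apart.

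LZTR1 (gene21276), the RAS brake at the top of the cascade, had higher values in both high-grain groups than in CON. It was 7.62, 3.45, 10.2, 5.14 and 4.50 FPKM in HP1 to HP5, 9.56, 5.14, 11.02, 9.32 and 9.81 in HG1 to HG5, and 2.13, 3.73, 1.80, 4.28 and 2.33 in CON1 to CON5. Each HG library lay above each CON library, while HP2 lay within the CON range. The means were 6.19 ± 2.72 FPKM in HP, 8.97 ± 2.24 in HG and 2.86 ± 1.09 in CON (SD, n = 5 each). The log2 fold change was 0.86 ± 0.261 (SE) for HP against CON, or 0.69 relative to the median gene. For HG against CON it was 1.38 ± 0.261, or 1.21 relative to the median gene. Without CON1 and CON3 the values were 0.64 and 1.16.

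The SD of LZTR1 was widest in HP, with HP3 highest and HP2 lowest. HP against HG had a log2 fold change of -0.52 ± 0.261 (SE). The unadjusted p was 0.065 and the adjusted p 0.999 (limma, Benjamini-Hochberg over all genes tested). LZTR1 was not chosen by this contrast, but the HP and HG values took part in its choice, so the p is no independent test. The ubiquitin ligase scaffold gene CUL3, through which LZTR1 acts, averaged 8.99 ± 0.312 FPKM in HP, 7.94 ± 0.635 in HG and 7.58 ± 1.99 in CON, with adjusted p of 0.29 and 0.722 for HP and HG against CON. The ratio of LZTR1 to CUL3 within a library, which a single scaling factor per library cannot alter, was 0.379 to 1.08 in HP, 0.685 to 1.40 in HG and 0.251 to 0.497 in CON. This ratio contains LZTR1 and so restates its choice. RIT1, a RAS-family target of LZTR1, averaged 9.72 ± 1.45 FPKM in HP, 8.64 ± 1.2 in HG and 7.39 ± 1.6 in CON (adjusted p 0.148 and 0.376 against CON).

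**Figure D1:**
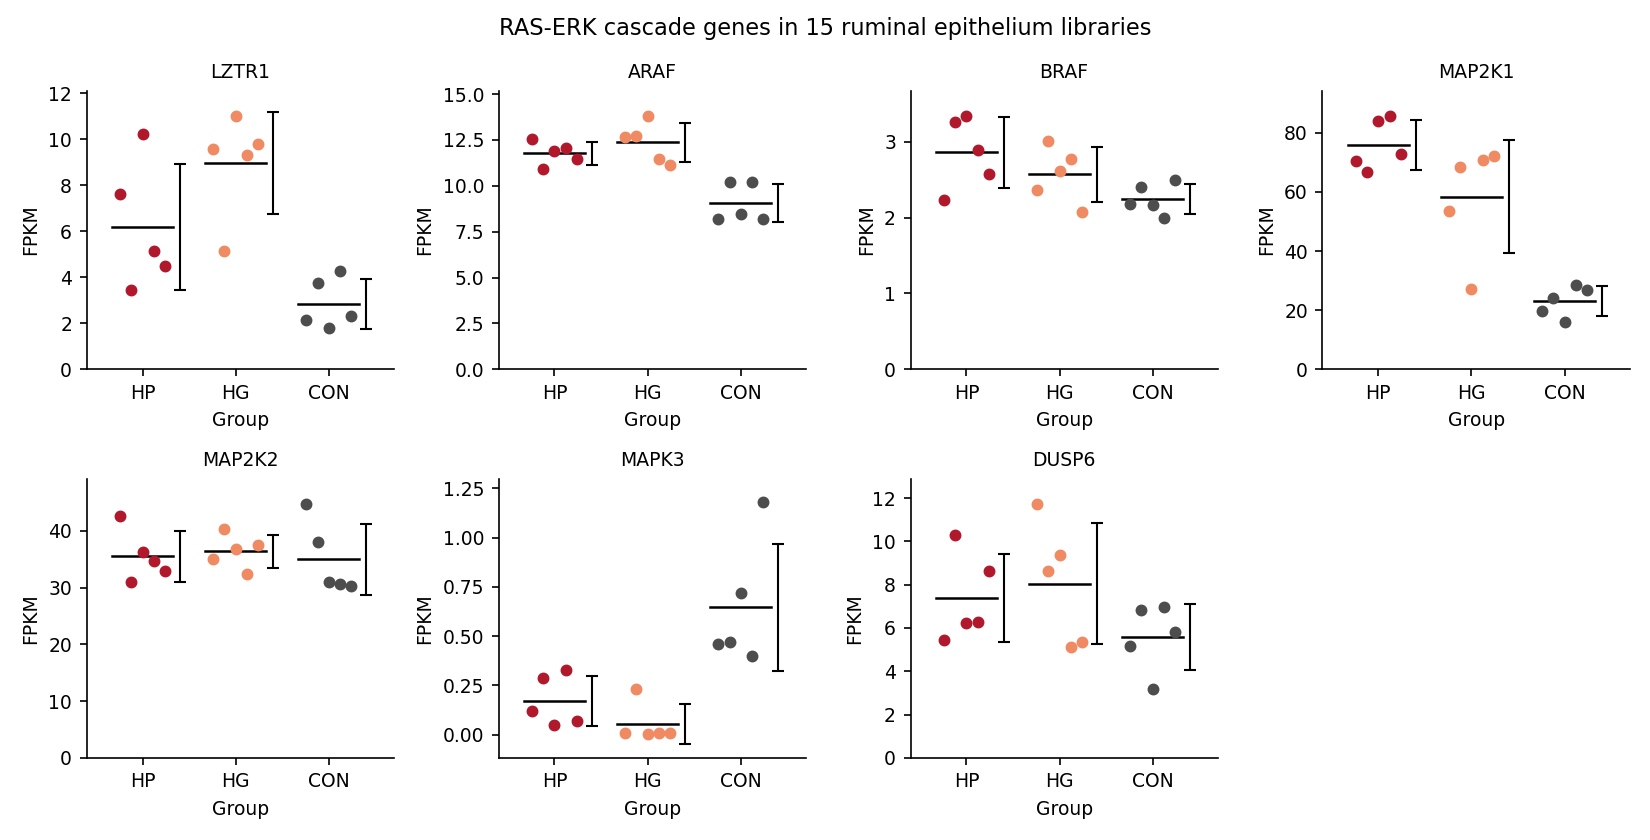
FPKM of the 7 members found in each library of HP, HG and CON (points), with the group mean (line) and SD (bar at its right, n = 5); each panel has its own linear axis. MAP2K1 is at 66.8 to 85.7 FPKM in HP and 16.1 to 28.5 in CON, with HG3 among the CON values, while MAP2K2 has overlapping ranges in all 3 groups.

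The RAF kinases carry the signal from RAS to MEK. ARAF (gene27639), an X-linked RAF kinase in mammals, was 12.6, 10.9, 11.9, 12.1 and 11.5 FPKM in HP1 to HP5, 12.7, 12.7, 13.8, 11.5 and 11.1 in HG1 to HG5, and 8.20, 10.2, 8.47, 10.2 and 8.22 in CON1 to CON5. All HP libraries and all HG libraries lay above all CON libraries in FPKM as given, without further scaling. Over all genes tested, 2.69% lay wholly above CON in this way in HP and 4.44% in HG. ARAF was the 1 such gene among the 4 tested members that had not been picked for their values. The log2 fold change was 0.35 ± 0.109 (SE) for HP against CON and 0.41 ± 0.109 for HG against CON, and 0.17 and 0.24 relative to the median gene. The unadjusted p was 0.00547 and 0.00165, and neither comparison passed the threshold of 0.05 (limma adjusted p 0.0991 and 0.0779). Without CON2 both did, at adjusted p of 0.036 and 0.0229. With CON2 left out, however, 2171 and 2218 of all genes tested were called in HP and HG against CON. Without CON1 and CON3 the adjusted p of ARAF was 0.51 and 0.355.

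BRAF (gene8419), the RAF kinase with the highest basal activity, was expressed at a low level. It was 2.24 to 3.34 FPKM in HP with a median of 2.89, 2.08 to 3.01 in HG with a median of 2.62, and 1.995 to 2.496 in CON with a median of 2.18. The ranges overlapped, and the log2 fold change was 0.24 ± 0.127 (SE) for HP against CON and 0.13 ± 0.127 for HG against CON (limma adjusted p 0.219 and 0.515).

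MAP2K1 (gene11241), which encodes the ERK-activating kinase MEK1, had the largest log2 fold change of HP against CON among the tested members. It was 70.4, 66.8, 83.9, 85.7 and 72.8 FPKM in HP1 to HP5, 53.4, 68.3, 27.2, 70.9 and 72.3 in HG1 to HG5, and 19.7, 24.0, 16.1, 28.5 and 26.9 in CON1 to CON5. Each HP library and 4 of 5 HG libraries lay above each CON library, and HG3 lay inside the CON range. The means were 75.9 ± 8.40 FPKM in HP, 58.4 ± 19.0 in HG and 23.0 ± 5.12 in CON (SD, n = 5 each). The log2 fold change was 1.70 ± 0.232 (SE) for HP against CON and 1.25 ± 0.232 for HG against CON, or 1.52 and 1.08 relative to the median gene. Without CON1 and CON3 the values were 1.48 and 1.04, and without HP5, HG2, HG3 and CON1, the libraries with the most smooth muscle RNA, they were 1.67 and 1.44.

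Between the high-grain diets, MAP2K1 had a log2 fold change of 0.45 ± 0.232 (SE) for HP against HG. Without HG3 this difference was 0.20. With all libraries the limma unadjusted p was 0.0725 and the adjusted p 0.999. MAP2K1 was not chosen by this contrast, but the HP and HG values took part in its choice, so the p is no independent test. Over the whole table limma called 0 genes in HP against HG, and its unadjusted p fell under 0.05 for 142 higher and 133 lower genes (1.09% and 1.02%). For MAP2K2, BRAF, ARAF and DUSP6 the log2 fold change of HP against HG was -0.04, 0.11, -0.06 and -0.09 (adjusted p 0.999 in each). Of these 4, 0 lay wholly above or below HG in HP, a separation seen in 0.252% and 0.199% of all genes tested.

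MAP2K2 (gene9305), the gene of the sister kinase MEK2, did not follow MAP2K1. It was 42.7, 31.0, 36.2, 34.6 and 32.9 FPKM in HP1 to HP5, 35.1, 40.3, 36.9, 32.4 and 37.5 in HG1 to HG5, and 44.7, 38.1, 31.1, 30.7 and 30.3 in CON1 to CON5. The 3 groups overlapped throughout, and the highest library of all was CON1. The log2 fold change was 0.03 ± 0.13 (SE) for HP against CON and 0.07 ± 0.13 for HG against CON (limma adjusted p 0.898 and 0.749), and its sign turned under median-ratio scaling and quantile normalization. Relative to the median gene it was -0.15 and -0.10.

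The order of the MEK genes within a library therefore differed between diets on the FPKM scale, which allows for transcript length. MAP2K1 was above MAP2K2 in all 5 HP libraries and in 4 of 5 HG libraries, and below it in all 5 CON libraries. It made up 62.3% to 71.2% of the summed MEK FPKM in HP, 42.4% to 68.6% in HG and 30.6% to 48.2% in CON, with means of 68.1% ± 3.45, 60.0% ± 10.3 and 39.7% ± 7.74 (SD, n = 5 each). HG3, at 42.4%, was the 1 high-grain library within the CON range. The summed level of both genes was 111.4 ± 9.68 FPKM in HP, 94.8 ± 19.2 in HG and 58.0 ± 6.63 in CON. These shares contain MAP2K1 and so restate its choice, but a single scaling factor per library cannot alter them.

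**Figure D2:**
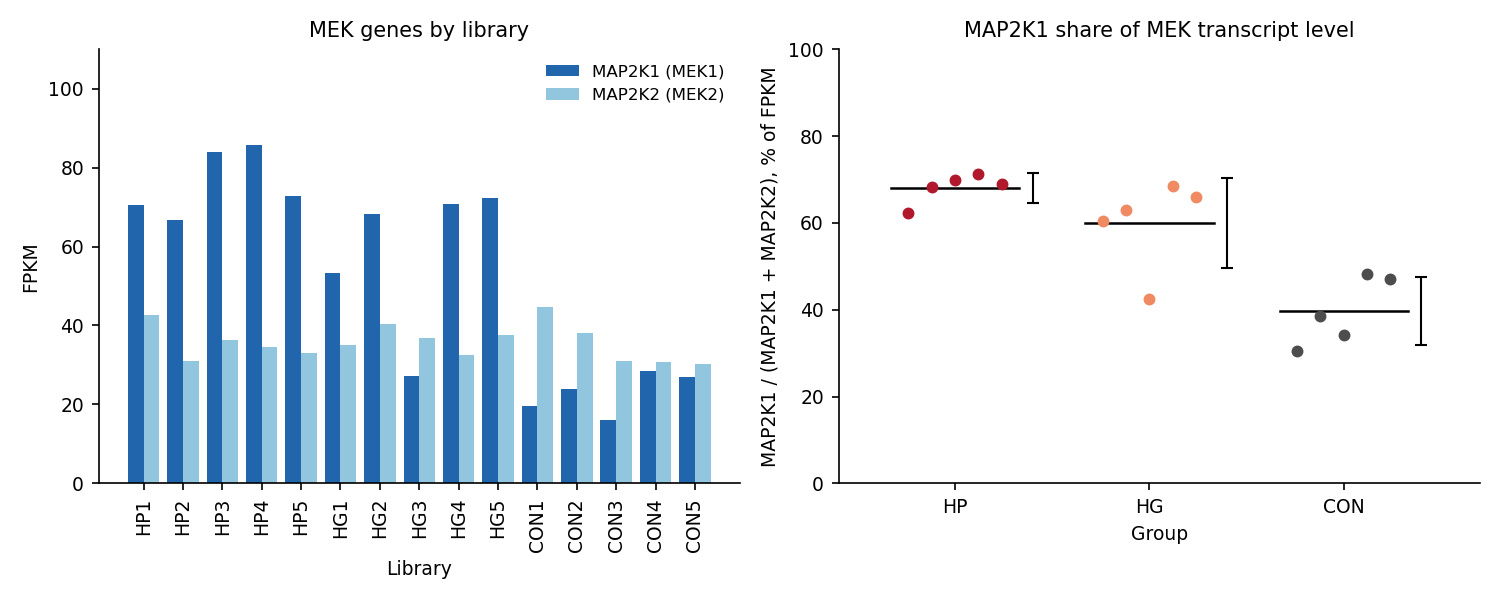
Left, FPKM of MAP2K1 and MAP2K2 in each of the 15 libraries (bars); right, MAP2K1 as a percentage of the summed FPKM of both genes, with 1 point per library, the group mean (line) and SD (bar at its right, n = 5). MAP2K1 exceeds MAP2K2 in 5 of 5 HP and 4 of 5 HG libraries, and its share averages 68.1% in HP, 60.0% in HG and 39.7% in CON.

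The libraries with the highest and lowest MAP2K1 were the same as those of LZTR1 in some groups and not in others. In HP, HP2 was lowest for both genes, at 66.8 and 3.45 FPKM, and HP3 was high for both, at 83.9 and 10.2. HP4 had the highest MAP2K1 of that group, at 85.7 FPKM, with LZTR1 at 5.14. In HG, HG3 had the lowest MAP2K1, at 27.2 FPKM, and the highest LZTR1, at 11.02. Within CON, library CON3 was lowest and CON4 highest for both genes, and CON3 also had the lowest median FPKM over all genes. No correlation between both genes is given, since each group holds only 5 libraries.

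**Figure D3:**
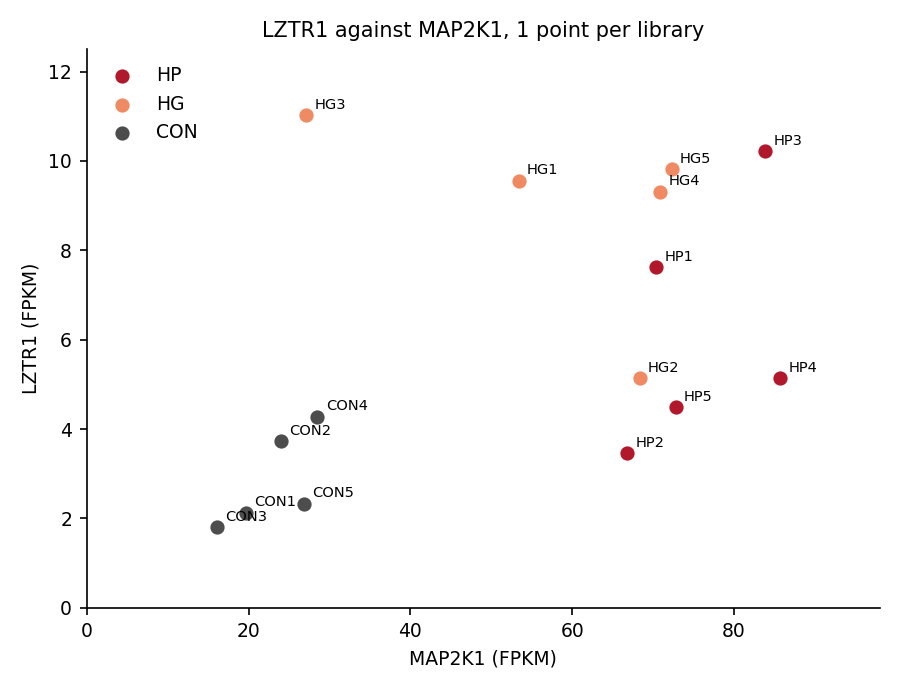
LZTR1 against MAP2K1 in FPKM, with 1 labelled point per library and colours for HP, HG and CON. HG3 (27.2 and 11.02 FPKM for MAP2K1 and LZTR1) has a CON-like MAP2K1 value with the highest LZTR1, and HP2 (66.8 and 3.45) has a high MAP2K1 value with LZTR1 in the CON range.

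MAPK3 (gene25970), the gene of ERK1, was at or under 1.18 FPKM in each library and was not tested. It was 0.12, 0.286, 0.0502, 0.326 and 0.0667 FPKM in HP1 to HP5, 0.00863, 0.233, 0.00302, 0.0104 and 0.00712 in HG1 to HG5, and 0.462, 0.47, 0.721, 0.399 and 1.18 in CON1 to CON5. All HP and all HG libraries lay below all CON libraries, at levels where an FPKM value rests on few fragments. Such a separation held for 0.825% of the genes tested in HP and 1.13% in HG. MAPK3 was not among the genes tested, so these shares are no background for a gene at its level. Whether the gene model in the annotation captures all of ERK1 is not known from the tables. Its neighbours in RefSeq order on assembly ARS-UI_Ramb_v3.0, GDPD3 and CORO1A, averaged 29.5, 26.3 and 25.7 FPKM, and 9.33, 8.92 and 10.6 FPKM, in HP, HG and CON.

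DUSP6 (gene6242), the ERK phosphatase whose transcript is used as a readout of ERK activity, was 5.44, 10.3, 6.23, 6.26 and 8.63 FPKM in HP1 to HP5, 11.7, 8.64, 9.37, 5.14 and 5.33 in HG1 to HG5, and 5.16, 6.81, 3.17, 6.96 and 5.82 in CON1 to CON5. The groups overlapped, with 2 of 5 HP and 3 of 5 HG libraries above all CON libraries. The log2 fold change was 0.35 ± 0.237 (SE) for HP against CON and 0.44 ± 0.237 for HG against CON, with limma adjusted p of 0.335 and 0.24, and 0.12 and 0.21 without CON1 and CON3. In HG the libraries with the highest MAP2K1, HG4 and HG5, had the lowest DUSP6. In HP the library with the lowest MAP2K1, HP2, had the highest DUSP6. Within CON it was the other way, with CON4 highest and CON3 lowest for both genes. No relation between MAP2K1 and DUSP6 was tested.

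Of the 4 tested members that had not been picked for their values, 0 passed the adjusted threshold in HP or HG against CON, at which limma called 0.00764% of all genes tested higher and 0.00764% lower in HP than CON, and 0% in HG. At an unadjusted p under 0.05 by limma 1 of 4, ARAF, was higher in each comparison, where 22.6% of all genes tested were higher in HP than CON and 21.8% in HG than CON. Both comparisons share the 5 CON libraries. Ordered by mean FPKM, the members ran MAP2K1, MAP2K2, ARAF, DUSP6, LZTR1, BRAF and MAPK3 in HP. In HG LZTR1 stood before DUSP6, and in CON MAP2K2 stood before MAP2K1. The ranges of DUSP6 and LZTR1 overlapped in each group, those of LZTR1 and BRAF in CON, and those of the MEK genes in HG. All other neighbours in this order had ranges apart.

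Other genes of the pathway were followed through 8 lists, from receptors to ERK substrates, and a list of the parallel MAP kinases. Outside the members these held 97 genes, of which 94 were tested. By limma 0 of the 94 passed the adjusted threshold in HP or HG against CON, with smallest adjusted p of 0.0991 and 0.0779. At an unadjusted p under 0.05, 35 were higher and 4 lower in HP than CON, which is 37.2% and 4.26% against 22.6% and 5.24% of all genes tested. In HG 33 were higher and 5 lower, which is 35.1% and 5.32% against 21.8% and 5.5%. The median log2 fold change of the 94 was 0.19 relative to the median gene in each comparison. The lists were chosen with earlier results known, so the shares are a description.

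At an unadjusted p under 0.05, receptors and adaptors had 10 of 17 genes higher and 1 lower in HP against CON, and 7 and 1 in HG. Over all genes tested, 22.6% were higher and 5.24% lower in HP, and 21.8% and 5.5% in HG. The same shares are the background for the count of each list below. ERBB3, a receptor of the EGF receptor family, averaged 22.3 ± 4.93 FPKM in HP, 20.02 ± 1.504 in HG and 14.1 ± 4.15 in CON. FRS2, an adaptor of FGF receptors, averaged 2.29 ± 1.69, 3.19 ± 0.367 and 1.304 ± 0.788. The 1 lower gene was GRB2, named after its values were seen, the adaptor that brings the RAS activator SOS to receptors. It was 6.87, 10.1, 20.2, 11.2 and 6.84 FPKM in HP1 to HP5, 7.07, 8.23, 13.0, 8.37 and 10.9 in HG1 to HG5, and 19.6, 7.94, 16.1, 22.2 and 23.5 in CON1 to CON5. CON2 lay among the high-grain libraries and HP3 among the CON ones, and the limma adjusted p was 0.16 and 0.116 for HP and HG against CON.

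Of 7 RAS genes, 2 were higher and 1 lower in HP by the same measure, and 0 in HG. Among 11 genes of RAS exchange factors, brakes and the LZTR1 ligase, 5 were higher and 0 lower in HP, and 3 and 1 in HG. SPRED2, which holds RAS in check with NF1, averaged 6.25 ± 1.203 FPKM in HP, 6.16 ± 1.06 in HG and 3.91 ± 1.73 in CON (adjusted p 0.118 in each). NF1, which speeds GTP hydrolysis by RAS, averaged 2.51 ± 0.828, 2.97 ± 0.423 and 1.72 ± 1.22, and RASAL2, another such protein, 3.91 ± 0.391, 3.41 ± 0.762 and 2.37 ± 1.06. The limma adjusted p was 0.276 and 0.132 for NF1 and 0.103 and 0.179 for RASAL2. The highest NF1 of all libraries was in CON2, at 3.54 FPKM. Without CON1 and CON3 the log2 fold change for HG against CON was 0.30 for SPRED2, 0.34 for NF1 and 0.24 for RASAL2. With them it was 0.63, 0.64 and 0.43.

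Scaffolds and regulators of RAF and MEK went both ways, with 5 of 17 higher and 2 lower in HP and 2 and 2 in HG at an unadjusted p under 0.05, and a median below that of all genes (-0.06 and -0.05). KSR1, a scaffold that holds RAF, MEK and ERK together, averaged 13.8 ± 3.33 FPKM in HP, 16.4 ± 3.07 in HG and 9.75 ± 3.68 in CON (limma adjusted p 0.174 and 0.0824). PEBP1, the RAF kinase inhibitor protein, averaged 62.2 ± 21.7, 51.4 ± 6.97 and 89.3 ± 27.7 (adjusted p 0.156 and 0.082). LAMTOR2, part of the complex that anchors MEK1 on late endosomes, averaged 101.7 ± 17.6, 108.8 ± 14.3 and 154.9 ± 42.8 (adjusted p 0.0991 and 0.117).

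**Figure D4:**
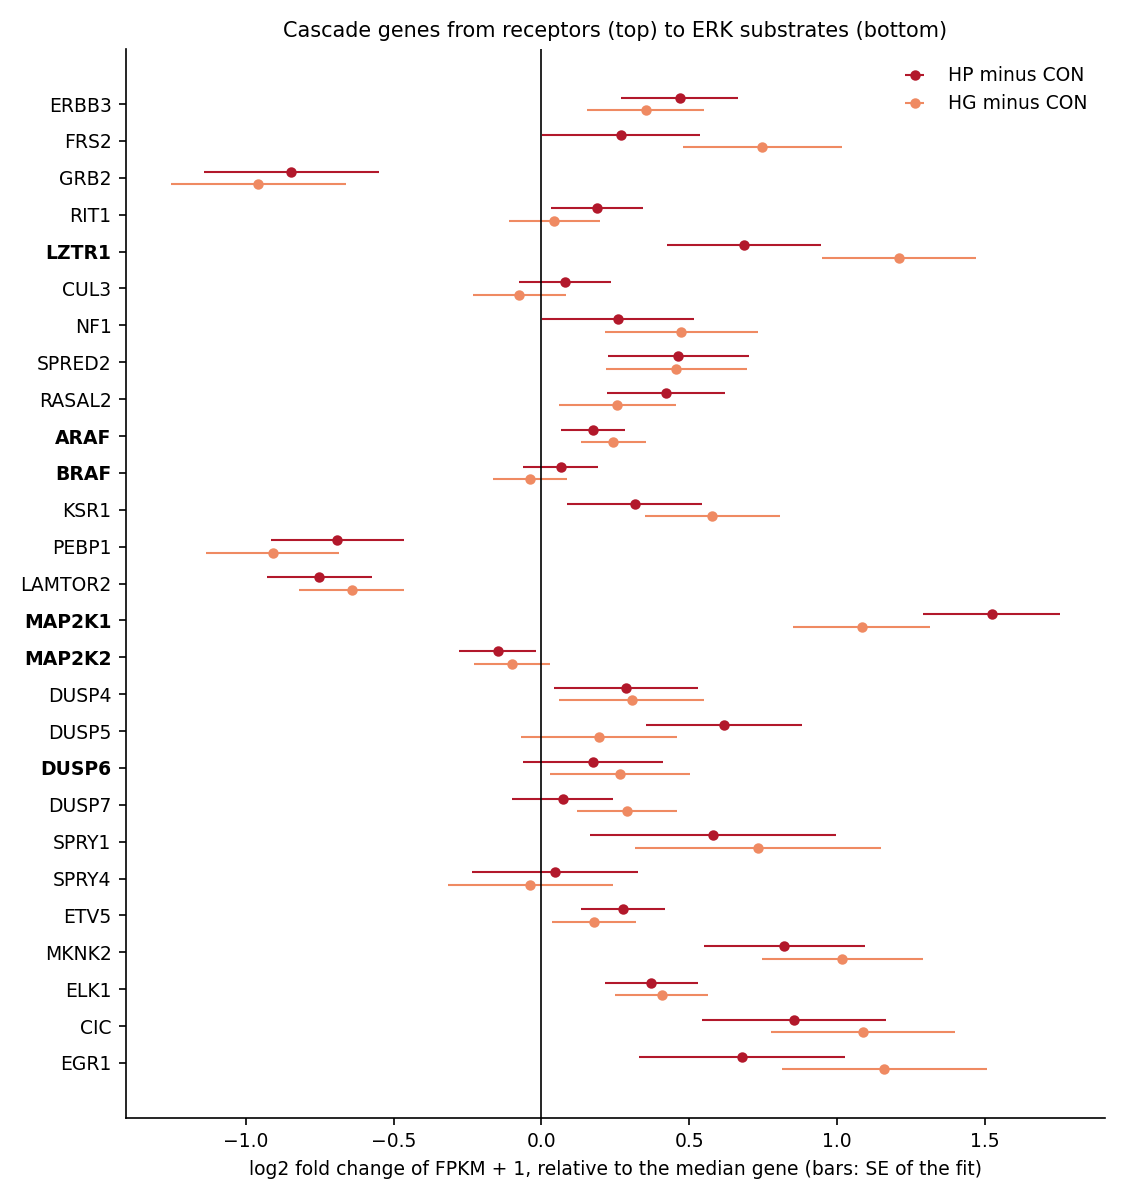
Log2 fold change of FPKM + 1 against CON for HP and HG, relative to the median gene. Bars are the SE of the limma fit. The 27 genes are ordered from receptors to ERK substrates, and the 6 tested members are in bold. Most of the other genes were named for a small p in their list, so their distance from the median gene is partly selected. MAP2K1 (1.52 and 1.08) and LZTR1 (0.69 and 1.21) lie to the right and GRB2, PEBP1 and LAMTOR2 to the left in both comparisons, which share the CON libraries; MAP2K2 is at -0.15 and -0.10.

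Phosphatases and feedback inhibitors had 1 of 10 tested genes higher and 0 lower in HP at an unadjusted p under 0.05, and 4 and 1 in HG. Of all genes tested, 22.6% were higher in HP and 21.8% in HG. DUSP5, a nuclear ERK phosphatase and the 1 gene counted higher in HP, was 0.73 to 4.99 FPKM in HP, 0.687 to 1.86 in HG and 0.303 to 0.707 in CON (limma adjusted p 0.103 and 0.377). No CON library reached 1 FPKM, so DUSP5 entered the test only through high-grain libraries. Its p against CON is therefore no fair test. DUSP7, like DUSP6 a cytoplasmic ERK phosphatase, averaged 36.8 ± 7.57, 42.1 ± 2.77 and 31.1 ± 7.56 (adjusted p 0.341 and 0.111). Of the relatives of SPRY2, SPRY1 ranged over 2.11 to 4.53 FPKM in HP, 2.33 to 5.15 in HG and 0 to 3.90 in CON, and SPRY4 over 2.16 to 2.78, 0.34 to 3.47 and 1.14 to 3.03. Neither passed the test, and the HP difference of both turned sign without CON1 and CON3.

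Among genes whose transcripts follow ERK activity, 1 of 9 tested was higher at an unadjusted p under 0.05 in each comparison. This compares with 22.6% of all genes tested in HP and 21.8% in HG. The median relative to all genes was 0.05 in HP and 0.12 in HG. The 1 gene counted was ETV5, an ETS transcription factor, at 1.64 ± 0.292 FPKM in HP, 1.45 ± 0.249 in HG and 0.936 ± 0.305 in CON (limma adjusted p 0.0991 and 0.139). DUSP4 averaged 3.56 ± 1.496, 3.51 ± 1.08 and 2.30 ± 0.958 (adjusted p 0.222 and 0.217).

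Substrates of ERK and the genes next to them had 7 of 13 tested higher and 0 lower in HP at an unadjusted p under 0.05, and 9 and 0 in HG. Their medians relative to all genes were 0.21 in HP and 0.41 in HG. MKNK2, a kinase that ERK activates to phosphorylate a translation factor, averaged 78.7 ± 6.65 FPKM in HP, 90.7 ± 15.2 in HG and 43.0 ± 20.4 in CON. ELK1, an ETS factor activated by ERK, averaged 7.21 ± 0.944, 7.38 ± 1.02 and 4.68 ± 1.11. All its HP and HG libraries lay above all CON libraries in FPKM as given, without further scaling. Of the 13 tested, 1 lay wholly above CON in HP and 2 in HG, against 2.69% and 4.44% of all genes tested. CIC, a repressor that ERK signalling relieves, averaged 12.7 ± 2.26, 14.997 ± 1.91 and 6.67 ± 4.40, and EGR1, an immediate early gene, 5.63 ± 1.91, 8.78 ± 5.08 and 2.85 ± 1.60. Their limma adjusted p was 0.0991 in HP and 0.0779 in HG, except for EGR1 in HP at 0.136. Without CON1 and CON3 the log2 fold change of CIC was 0.50 in HP and 0.73 in HG, against 1.03 and 1.26 with them.

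The parallel MAP kinase cascades gave 2 of 12 genes higher and 0 lower in HP at an unadjusted p under 0.05, and 5 and 0 in HG. Of all genes tested, 22.6% were higher in HP and 21.8% in HG. MAP2K7, which activates the JNK kinases, averaged 9.23 ± 2.31 FPKM in HP, 9.47 ± 1.28 in HG and 5.03 ± 3.35 in CON (limma adjusted p 0.105 and 0.0873). MAPK8, the gene of JNK1, averaged 3.11 ± 0.535, 2.28 ± 0.576 and 1.55 ± 0.708 (adjusted p 0.0991 and 0.194). Without CON2, the adjusted p of MAP2K7 was 0.022 and 0.0165 and that of MAPK8 was 0.0202 and 0.0439 in HP and HG, along with the 2171 and 2218 calls over all genes. Without CON1 and CON3 the log2 fold change of MAP2K7 was 0.45 in HP and 0.51 in HG, against 0.92 and 0.98 with them, and without CON3 alone it was 0.61 and 0.67.

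Genes with the pattern most like that of MAP2K1 over the 15 libraries were searched among 6922 named genes whose mean reached 5 FPKM. The closest by Pearson's r of log2(FPKM + 1) were FAM149A (0.92), EPHB3 (0.88), DGCR8 (0.85), CDK5RAP2 (0.85) and LPIN3 (0.84). Once group means were taken out, r was 0.75, 0.73, 0.59, 0.29 and 0.48. FAM149A averaged 17.2 ± 1.35 FPKM in HP, 15.2 ± 1.39 in HG and 12.0 ± 2.04 in CON, a smaller difference than that of MAP2K1. For LZTR1 the closest were RNF40 (0.93), PCSK6 (0.92), SEMA4A (0.92), USP5 (0.91) and FAM83G (0.91), with 0.85, 0.77, 0.86, 0.85 and 0.74 once group means were taken out. RNF40 averaged 15.3 ± 2.19, 16.4 ± 0.798 and 11.1 ± 2.32. Spearman's rho was 0.75 to 0.91 for the first set and 0.87 to 0.99 for the second. No p is given, since these genes were taken as the highest of many and the libraries share their diet and their scaling.

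Reads of overlapping genes cannot be told apart where strand was not used, and strand is not given in the sources used here. By RefSeq annotation of assembly ARS-UI_Ramb_v3.0, used for names and order only, SNAPC5 overlaps MAP2K1. SNAPC5 averaged 7.81 ± 1.04 FPKM in HP, 8.002 ± 0.281 in HG and 9.81 ± 1.93 in CON. The part of shared reads in the MAP2K1 values was not tested. ARAF overlaps SYN1, TIMP1 and ZNF81, of which TIMP1 averaged 24.2 ± 12.1, 23.8 ± 6.00 and 33.2 ± 10.1 FPKM and the other two were under 1 FPKM on average in each group. BRAF overlaps a pseudogene that has no row in the tables. AIFM3, the neighbour before LZTR1, averaged 6.75 ± 2.48, 6.10 ± 1.01 and 5.20 ± 1.75.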

How the data were processed

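Total RNA of ruminal epithelium was measured in 15 libraries. The authors deposited a table of FPKM values for each library, per the file headers. The submitters' processing notes list HISAT2 and StringTie 1.3.4d. The sources used here name no genome build, annotation, strand or filter. Symbols were missing for 1933 genes named by number, and RefSeq gave 320 of them. Low values fell on no whole-read steps, and counts were therefore not recovered.

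The members, gene lists and tests were chosen with earlier results of these data known. Genes were kept where 5 libraries or more reached 1 FPKM, which left 13084. Their log2(FPKM + 1), a scale that understates changes of low genes, was tested with limma 3.58.1 in R 4.3.3 (trend, robust, statmod 1.5.0) under a model of group means over all 15 libraries. Benjamini-Hochberg adjustment was applied per contrast, and calls were made at 0.05. The test was checked on simulated data. From each pathway list, the 3 genes with the smallest p in HP or HG against CON could be named. CUL3, SPRY1 and SPRY4 were named for their roles and GRB2 after its values were seen. Some pathway genes counted in the lists are not reported here by name. Alternatives were another pseudocount, other filters and scalings, fits of the 10 libraries compared, array quality weights, a replicate block and libraries left out.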

Additional observations from a re-analysis of the deposited data

Results flagged for a closer look

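Among 102 groups of 5 libraries, over 34 genes and ratios, 9 held a library far from the other 4, with a gap to its nearest neighbour above 0.71 of the group's range. Chance alone gives about 1 such group in 20.

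Library HG2 accounted for 3 of the 9. Its LZTR1, at 5.14 FPKM, was below the 9.32 to 11.02 of the other HG libraries. Its MAPK3, at 0.233 FPKM, was above their 0.00302 to 0.0104. Its DUSP4 was 5.40 FPKM, against 2.81 to 3.37. HG2 also had the highest summed smooth muscle markers, 5273 FPKM, whose part in these values was not tested.

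The other 6 were single values. CUL3 was 9.05 FPKM in HG1, against 7.51 to 7.87 in the other HG libraries. NF1 was 2.23 FPKM in HG5, against 3.04 to 3.29. DUSP7 was 46.9 FPKM in HG5, against 40.0 to 41.7. FRS2 was 5.19 FPKM in HP2, against 1.1 to 2.23 in the other HP libraries. PEBP1 was 100.5 FPKM in HP3, against 48.1 to 58.3. DUSP5 was 4.99 FPKM in HP1, against 0.73 to 1.77.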

How the results depend on the processing

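Of 1639 values recomputed for named genes, 1544 were counted as unchanged and 31 turned sign. Another 64 passed the threshold newly (26 without CON2, 31 without CON2 and HP1, 7 with array quality weights). Unchanged meant the same direction and side of the threshold. For MAP2K1 and LZTR1 against CON no threshold was applied. There it meant the same sign and a shift smaller than the gene's SD around its group means. Some settings cannot alter a log2 fold change, only its p, and the unchanged values include them. These are other filters, a replicate block, fits of the 10 libraries compared and a library of the third group left out. The log2 fold changes of MAP2K1 and LZTR1 kept their sign under all alternatives. Against CON, this was largely set by their choice for higher values on high grain. Depth is unknown, so precision at low FPKM, as for MAPK3, cannot be stated.

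Leaving out 1 library at a time gave 0 to 2171 genes called for HP against CON, 0 to 2218 for HG against CON and 0 to 1 for HP against HG, with the highest of the first 2 without CON2. For HP against CON, with 2 calls as reported, 7 were made from the 10 libraries compared, 3163 without CON2 and HP1, 1 with a pseudocount of 0.1, 1 with no filter, and 0 with array quality weights or without CON1 and CON3. For HG against CON, with 0 calls, 1 was made with a filter at 5 FPKM, 1 from the 10 libraries compared, 868 with array quality weights and 2563 without CON2 and HP1. Without HP5, HG2, HG3 and CON1, an alternative chosen after seeing the data, 1 call was made in each of HP against CON and HP against HG. The causes were not tested.

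Same-numbered libraries correlated at -0.1985 to 0.2929 over 15 pairs, and in 3 of the 15 the same-numbered library was the one correlated best, so the numbers were not taken as pairs. With a replicate block, 1 gene was called for HP against CON.

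The sign changes were all in values that did not pass the test. With median-ratio scaling, MAP2K2 was -0.19 for HP and -0.14 for HG against CON, and for HG BRAF was -0.023 and CUL3 -0.091. With quantile normalization, MAP2K2 was -0.010, BRAF -0.027 and SPRY4 -0.034 for HP, and MAP2K2 was -0.00057, BRAF -0.118, RIT1 -0.0089, CUL3 -0.138 and SPRY4 -0.113 for HG. With array quality weights, CUL3 was -0.073 and SPRY4 -0.026 for HG. Without CON1 and CON3, SPRY1 was -0.072 and SPRY4 -0.0029 for HP, and CUL3 was -0.137 and SPRY4 -0.093 for HG. Without CON2 and HP1, MAP2K2 was -0.0034 for HP against CON, and DUSP6 was 0.0017 for HP against HG. Without HP5, HG2, HG3 and CON1, SPRY4 was -0.177 for HG against CON, and MAP2K2 was 0.039 and ARAF 0.011 for HP against HG. Over single libraries left out, MAP2K2 ranged from -0.037 to 0.12 in HP against CON and from -0.108 to 0.0041 in HP against HG, CUL3 from -0.069 to 0.169 for HG against CON, and DUSP6 from -0.21 to 0.052 for HP against HG.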
